A study of Homo sapiens with 6 samples.

Results

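The aldehyde dehydrogenase (ALDH) genes followed here are 10 human genes, ALDH1A1, ALDH1A3, ALDH1B1, ALDH2, ALDH3A2, ALDH3B1, ALDH6A1, ALDH7A1, ALDH9A1 and ALDH18A1. They were measured in growing, senescent and RB-depleted IMR90 fibroblasts. Every probe set whose platform symbol was one of these genes was taken, which gave 23 of the 54613 probe sets on the array and 10 of the 19775 genes named by a probe set of their own. The family was picked because ALDH1A3, ALDH3A2 and ALDH2 moved apart between the cell states on these arrays. The members were thus selected on the log2 differences between these states, and their values are a description: no p-value is given for them, and nothing is read from how many passed a threshold.

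IMR90 is a line of human diploid lung fibroblasts, and all 6 samples were IMR90 cells carrying ER:Ras, an oncogenic H-Ras that 4-hydroxytamoxifen (4-OHT) switches on. RB-KD OIS cells received 100 nM 4-OHT for 6 days, which brings on oncogene-induced senescence (OIS), and siRB1, a mixture of siRNAs against RB1, 4 days before RNA isolation. Ctrl-KD OIS cells had the same 4-OHT exposure with a control siRNA. For growing cells neither 4-OHT nor a transfection is recorded. Each state had 2 biological replicates, from 2 independent experiments, with 1 Affymetrix array each. On these records, Ras induction and transfection cannot be told apart where an OIS state is set against growing cells. With 2 arrays a state an exact permutation test cannot go below p = 0.333.

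ALDH enzymes use NAD or NADP to oxidise reactive aldehydes to carboxylic acids. Each handles a different set of aldehydes: retinaldehyde on the way to retinoic acid, acetaldehyde and lipid peroxidation products in mitochondria, long-chain aldehydes from sphingolipid and ether lipid breakdown, and the semialdehydes made when valine, lysine and carnitine precursors are processed. ALDH18A1 belongs to the family by sequence but runs the reductive step that opens proline synthesis from glutamate. ALDH activity is widely used as a marker of stem-like cells, and fibroblasts use several of these enzymes for detoxification.

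ALDH1A3 and ALDH3A2 lay 2.99 and 2.67 times above their growing level in Ctrl-KD OIS cells, and ALDH2 lay 1.44 times above its own. In RB-KD OIS cells all 3 were below Ctrl-KD OIS cells, but they stood in different places against growing cells. ALDH1A3 and ALDH3A2 were still above the growing level, whereas ALDH2 was 1.73 times below it. ALDH7A1 and ALDH6A1 ran the other way, with their lowest levels in Ctrl-KD OIS cells. ALDH3B1 was highest in growing cells, and ALDH9A1 and ALDH18A1 moved little.

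The arrays carry MAS5 signals, which are linear probe set intensities scaled to a common level on each array. The median signal of an array was 46 to 51.8, and a probe set under it is called dim here, because the table holds no detection calls. Log2 signals correlated at r = 0.920 to 0.925 between replicates and at 0.893 to 0.919 between states. RB1, the siRNA target, read 221.7 and 228.5 in RB-KD OIS cells, 2578.2 and 1914.5 in Ctrl-KD OIS cells, and 2627.2 and 2528.4 in growing cells. CCNE2, a cell cycle gene, read 5312.4 and 6106.5, 61.8 and 107.6, and 805.9 and 777.1 in the same states. The authors reported a partial recovery of DNA replication in RB-KD OIS cells. CXCL8 and CDKN1A lay 49.5 and 1.69 times above growing cells in Ctrl-KD OIS, and 55.5 and 1.81 times in RB-KD OIS. All 6 fibroblast markers were above the median on every array. Their summed signal was 128145.7 to 152821.7 in RB-KD OIS cells, 114751.2 to 114949.1 in Ctrl-KD OIS cells and 165061.5 to 165747.5 in growing cells. Against growing cells, COL1A2, COL3A1, THY1 and PDGFRB were 2.10, 3.27, 4.75 and 4.25 times lower in Ctrl-KD OIS, and COL1A1 and VIM overlapped. None of 4 epithelial and none of 3 leukocyte markers was above the median on every array, and of 3 endothelial markers only PECAM1 was. CDH1, KRT5, KRT14, CDH5 and CD14 were dim on all 6 arrays. EPCAM was above the median on 5 of the 6 arrays, CD3E on 4, VWF on 3 and PTPRC on 1. Summed epithelial signal was 144.4 to 158.8, 62.8 to 85.0 and 99.7 to 155.1 in RB-KD OIS, Ctrl-KD OIS and growing cells. Summed leukocyte signal was 80.8 to 92.4, 120.2 to 150.8 and 136.5 to 169.5 in the same states, and summed endothelial signal 178.8 to 208.0, 154.9 to 208.6 and 158.6 to 166.5. The part of these shifts in the ALDH values was not tested. In bulk RNA, fewer cells with a transcript and less of it per cell cannot be told apart.

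Promoter sequence is shown for members highest and lowest in Ctrl-KD OIS cells: ALDH1A3 and ALDH3A2, which led Ctrl-KD OIS over growing cells, and ALDH7A1, which was lowest there on each of its probe sets. RefSeq windows on GRCh38.p14, running from 250 bases before to 50 bases after an annotated start, matched 9 of the 10 members, all but ALDH2, with 11 windows in all. The ALDH1A3 window is chr15:100879581-100879880 on the plus strand, the ALDH3A2 windows are chr17:19647886-19648185 and chr17:19648501-19648800 on the plus strand, and the ALDH7A1 window is chr5:126595170-126595469 on the minus strand. They are written 5′ to 3′ along the gene, and capitals mark 3 motifs on either strand, overlapping matches included: the GC box with the letters GGGCGG, the CCAAT box with the letters in its name and, where present, the TATA box with the letters TATAAA.
ALDH1A3: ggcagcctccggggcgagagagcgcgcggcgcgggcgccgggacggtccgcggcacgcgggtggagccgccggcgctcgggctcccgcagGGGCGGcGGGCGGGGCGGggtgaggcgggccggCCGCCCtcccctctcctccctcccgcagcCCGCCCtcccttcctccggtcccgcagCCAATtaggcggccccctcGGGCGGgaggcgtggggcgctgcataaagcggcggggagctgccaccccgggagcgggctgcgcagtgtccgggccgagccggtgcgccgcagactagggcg
ALDH3A2 window 1: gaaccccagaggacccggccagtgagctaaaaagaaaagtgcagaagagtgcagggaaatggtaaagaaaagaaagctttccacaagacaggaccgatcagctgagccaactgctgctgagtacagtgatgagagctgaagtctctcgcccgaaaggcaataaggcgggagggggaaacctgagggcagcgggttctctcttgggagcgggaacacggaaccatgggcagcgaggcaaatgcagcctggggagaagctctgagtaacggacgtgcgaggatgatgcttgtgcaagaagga
ALDH3A2 window 2: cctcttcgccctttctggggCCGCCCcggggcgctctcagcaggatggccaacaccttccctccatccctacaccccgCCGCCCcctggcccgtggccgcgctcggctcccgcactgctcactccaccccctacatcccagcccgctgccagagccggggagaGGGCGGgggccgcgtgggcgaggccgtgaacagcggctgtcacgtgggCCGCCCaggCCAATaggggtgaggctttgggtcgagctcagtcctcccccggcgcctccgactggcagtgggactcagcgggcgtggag
ALDH7A1: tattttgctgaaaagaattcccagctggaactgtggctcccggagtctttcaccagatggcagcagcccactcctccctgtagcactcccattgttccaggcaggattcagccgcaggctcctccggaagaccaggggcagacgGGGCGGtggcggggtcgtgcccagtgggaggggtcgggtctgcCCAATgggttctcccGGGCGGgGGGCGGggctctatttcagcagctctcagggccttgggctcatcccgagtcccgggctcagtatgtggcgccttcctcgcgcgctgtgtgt

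The ALDH1A3 window held 6 GC boxes and 1 CCAAT box and had a GC content of 81.7%. Window 2 of ALDH3A2 held 4 GC boxes, 1 CCAAT box and, left in lower case, 1 E-box (CACGTG), while window 1 held none of these. The ALDH7A1 window held 3 GC boxes and 1 CCAAT box. Any link of these motifs to expression was not tested. Among 35116 promoter windows of the same length, 45.0% held a GC box, 34.6% a CCAAT box, 11.5% a TATA box and 7.3% an E-box. An E-box also lay in window 1 of ALDH3B1 and in the ALDH18A1 window. ALDH6A1 carried 4 CCAAT boxes and 1 GC box, ALDH1B1 carried 3 GC boxes and 1 CCAAT box, and ALDH1A1 carried 1 CCAAT box alone. No member window held a TATA box. E2F sites, searched on both strands as the 4 spellings TTTCGCGC or TTTGGCGC and TTTCCCGC or else TTTGCCGC, were found in 3.3% of all windows and in none of the 11. The antioxidant response element core TGACNNNGC, found in 13.3% of all windows, was in none of them either. These matches describe the letters in the windows alone.

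**Figure D1:**
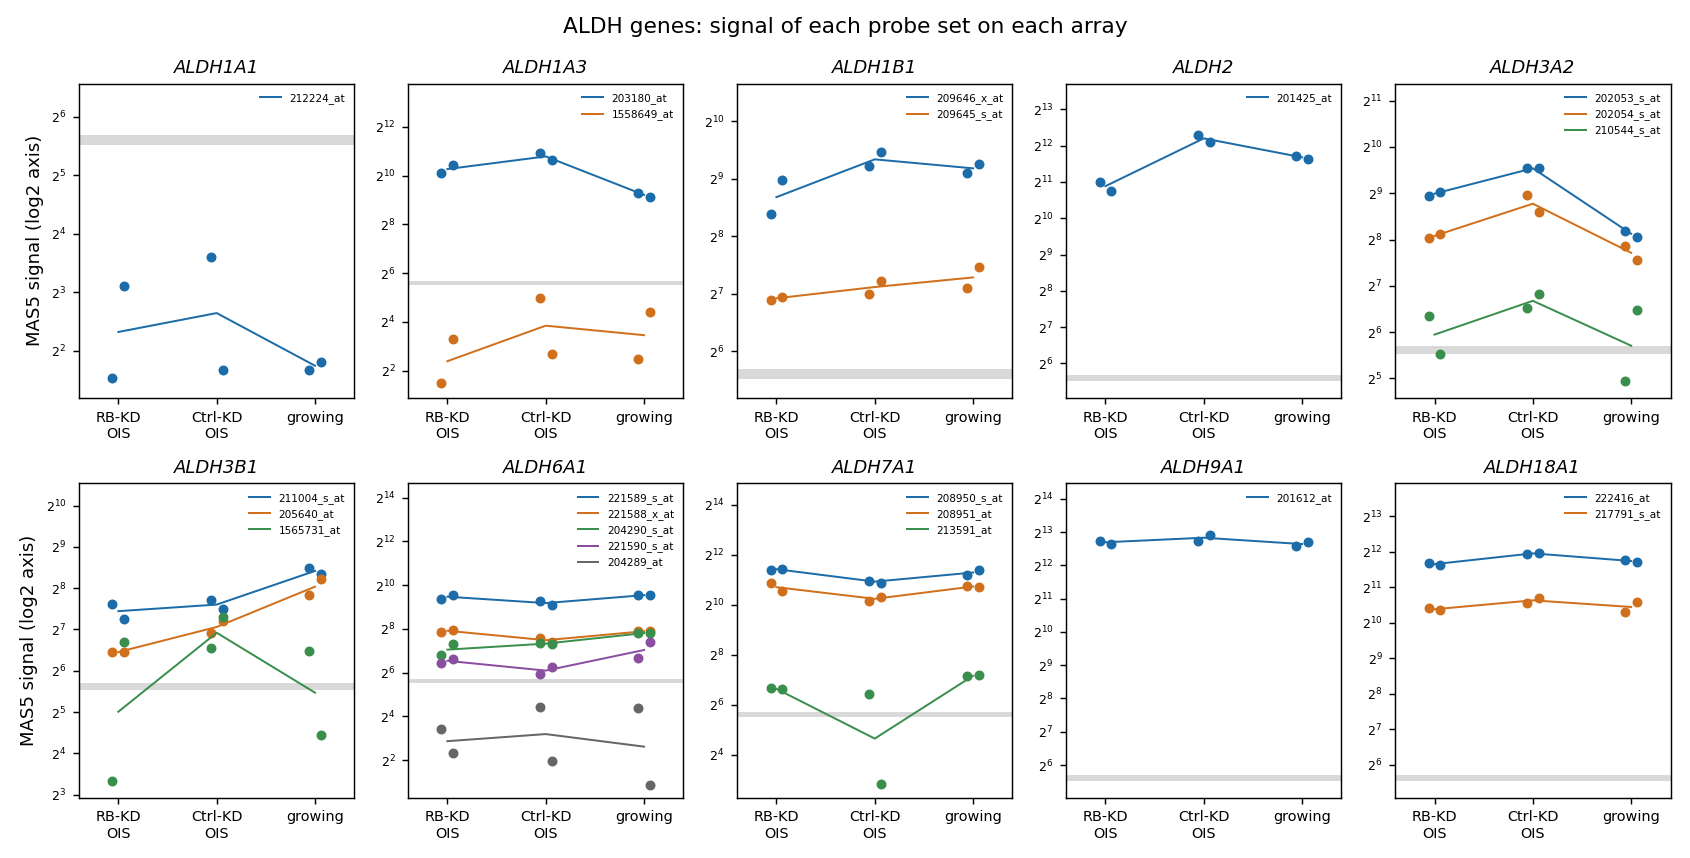
MAS5 signal (log2 axis) of every probe set of the 10 ALDH genes, 1 panel a gene, with 1 point per array in RB-KD OIS, Ctrl-KD OIS and growing cells and lines through the geometric mean of each state. The grey band spans the 6 array medians (46 to 51.8). ALDH1A3, ALDH2 and ALDH3A2 peak in Ctrl-KD OIS cells, ALDH7A1 dips there, and ALDH1A1 lies under the band on all arrays.

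The retinaldehyde dehydrogenases ALDH1A1 and ALDH1A3 make retinoic acid, the ligand of nuclear retinoic acid receptors. ALDH1A1 had 1 probe set (212224_at), and it was dim on all 6 arrays, with 2.9 and 8.6 in RB-KD OIS cells, 12.2 and 3.2 in Ctrl-KD OIS cells, and 3.2 and 3.5 in growing cells. The ranges of the 3 states overlap, and no difference is drawn from signals at this level.

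ALDH1A3 was bright on 203180_at, which read 1115.9 and 1372.6 in RB-KD OIS cells, 1938.5 and 1622.0 in Ctrl-KD OIS cells, and 634.1 and 556.2 in growing cells. The 3 states did not overlap: Ctrl-KD OIS was highest, RB-KD OIS in between and growing lowest. On the log2 scale, the difference was 1.58 for Ctrl-KD OIS against growing, -0.52 for RB-KD OIS against Ctrl-KD OIS and 1.06 for RB-KD OIS against growing, each with a standard error (SE) of 0.15 from a fit over all probe sets tested. Of 13398 genes tested, 625 (4.66%) had a higher difference between Ctrl-KD OIS and growing cells. A second probe set, 1558649_at, was dim throughout, between 2.8 and 31.8 over the 6 arrays, with all states overlapping. Averaging it with the bright one took the difference between RB-KD OIS and growing cells to -0.0037, so the ALDH1A3 values rest on 203180_at.

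ALDH2, the mitochondrial enzyme that clears acetaldehyde and the lipid peroxidation product 4-hydroxynonenal, had 1 probe set (201425_at). It read 2055.3 and 1738.2 in RB-KD OIS cells, 5011.0 and 4422.0 in Ctrl-KD OIS cells, and 3376.1 and 3180.9 in growing cells. Again the 3 states did not overlap, but here RB-KD OIS was the lowest. Its log2 difference was 0.52 for Ctrl-KD OIS against growing, -1.32 for RB-KD OIS against Ctrl-KD OIS and -0.79 for RB-KD OIS against growing (SE 0.11 each). The level in RB-KD OIS cells was 2.49 times below that in Ctrl-KD OIS cells, and 330 of the 13398 genes (2.46%) had a lower difference in that comparison. Among the brightest probe sets of the members, that of ALDH2 had the widest gap between the OIS states.

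ALDH1B1, the mitochondrial relative of ALDH2 that also takes acetaldehyde, had 2 bright probe sets. The brighter one, 209646_x_at, is of a type whose probes may match other transcripts, and it read 335.4 and 501.3 in RB-KD OIS cells, 593.4 and 703.7 in Ctrl-KD OIS cells, and 547.0 and 614.6 in growing cells. RB-KD OIS lay below both other states, which overlapped each other. Its log2 difference was -0.66 for RB-KD OIS against Ctrl-KD OIS and -0.50 for RB-KD OIS against growing (SE 0.20 each). The other probe set, 209645_s_at, also put RB-KD OIS lowest, with smaller gaps. It read 119.3 and 123.3 in RB-KD OIS cells, 128.4 and 150.2 in Ctrl-KD OIS cells, and 137.3 and 177.0 in growing cells. The overlapping Ctrl-KD OIS and growing states differed by 0.16 on 209646_x_at and by -0.17 on 209645_s_at. The RB-KD OIS replicates of 209646_x_at stood apart: the difference from Ctrl-KD OIS was -0.37 without RB-KD OIS replicate 1 and -0.95 without RB-KD OIS replicate 2. Leaving out the same arrays gave -0.21 and -0.79 against growing cells.

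ALDH3A2 encodes fatty aldehyde dehydrogenase of the endoplasmic reticulum, which takes long-chain aldehydes such as the hexadecenal released from sphingosine 1-phosphate. Its brightest probe set, 202053_s_at, read 493.5 and 524.0 in RB-KD OIS cells, 741.3 and 745.9 in Ctrl-KD OIS cells, and 291.6 and 266.9 in growing cells. Ctrl-KD OIS was highest and growing lowest, with no overlap. The log2 difference was 1.41 for Ctrl-KD OIS against growing, -0.55 for RB-KD OIS against Ctrl-KD OIS and 0.87 for RB-KD OIS against growing (SE 0.14 each).

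A second ALDH3A2 probe set, 202054_s_at, gave the same order of states, with 263.7 and 277.2 in RB-KD OIS cells, 498.9 and 383.8 in Ctrl-KD OIS cells, and 232.6 and 189.4 in growing cells. There the log2 differences, given for the comparisons in the order used for 202053_s_at, were 1.06, -0.69 and 0.37 (SE 0.20 each). The last of these is smaller than on 202053_s_at. Another, 210544_s_at, was near the array median, at 82.0 and 46.4 in RB-KD OIS cells, 92.3 and 113.4 in Ctrl-KD OIS cells, and 30.8 and 88.6 in growing cells. Ctrl-KD OIS was again above both other states there, which overlapped each other.

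ALDH3B1, a membrane-bound enzyme for aldehydes formed in lipid oxidation, was highest in growing cells on both of its steadier probe sets. Probe set 211004_s_at read 197.2 and 153.7 in RB-KD OIS cells, 209.4 and 180.6 in Ctrl-KD OIS cells, and 359.2 and 325.6 in growing cells. Both OIS states lay below growing cells and overlapped each other. Log2 differences were -0.81 for Ctrl-KD OIS against growing and -0.97 for RB-KD OIS against growing (SE 0.21 each). On 205640_at the signals were 88.2 and 87.2 in RB-KD OIS cells, 121.2 and 147.2 in Ctrl-KD OIS cells, and 229.8 and 300.1 in growing cells, so the 3 states separated, with RB-KD OIS lowest. The differences were -0.98 for Ctrl-KD OIS against growing, -0.61 for RB-KD OIS against Ctrl-KD OIS and -1.58 for RB-KD OIS against growing (SE 0.26 each). The remaining probe set, 1565731_at, scattered between 10 and 156.6 and went the other way in Ctrl-KD OIS against growing cells (log2 difference 1.45, SE 1.03).

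ALDH6A1, the mitochondrial methylmalonate semialdehyde dehydrogenase of valine breakdown, had 4 bright probe sets and 1 dim one. The brightest, 221589_s_at, read 664.4 and 759.0 in RB-KD OIS cells, 624.4 and 539.0 in Ctrl-KD OIS cells, and 754.4 and 738.4 in growing cells. Ctrl-KD OIS lay below both other states, and RB-KD OIS and growing cells overlapped. The log2 difference was -0.36 for Ctrl-KD OIS against growing and 0.29 for RB-KD OIS against Ctrl-KD OIS (SE 0.14 each). The probe set 221588_x_at repeated this pattern with 235.3 and 247.2 in RB-KD OIS cells, 192.3 and 166.5 in Ctrl-KD OIS cells, and 238.7 and 236.6 in growing cells. The probe set 221590_s_at read 86.3 and 100.1 in RB-KD OIS cells, 61.8 and 75.3 in Ctrl-KD OIS cells, and 102.2 and 168.2 in growing cells. It too was lowest in Ctrl-KD OIS cells, but growing cells lay above RB-KD OIS cells with no overlap.

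The 4 bright ALDH6A1 probe sets did not all read alike. On 204290_s_at RB-KD OIS cells were lowest, at 112.7 and 156.2, against 163.5 and 157.4 in Ctrl-KD OIS cells and 221.3 and 227.2 in growing cells. Against growing cells all 4 were lower in Ctrl-KD OIS, by log2 differences of -0.36 to -0.94. They split 3 to 1 in RB-KD OIS against Ctrl-KD OIS. The difference of 221589_s_at between RB-KD OIS and growing cells, -0.07, turned to 0.04 when the arrays were centred on their medians.

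ALDH7A1, also called antiquitin, oxidises the semialdehyde of lysine breakdown and differed from Ctrl-KD OIS in the direction opposite to that of ALDH2 in RB-KD OIS cells. Probe set 208950_s_at read 2702.4 and 2786.7 in RB-KD OIS cells, 1996.1 and 1890.4 in Ctrl-KD OIS cells, and 2320.4 and 2695.7 in growing cells. Ctrl-KD OIS was lowest and RB-KD OIS just above growing, with no overlap. This gave log2 differences of -0.36 for Ctrl-KD OIS against growing, 0.50 for RB-KD OIS against Ctrl-KD OIS and 0.13 for RB-KD OIS against growing (SE 0.10 each).

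On the second ALDH7A1 probe set, 208951_at, RB-KD OIS cells gave 1876.2 and 1479.1, Ctrl-KD OIS cells 1140.9 and 1275.6, and growing cells 1740.8 and 1657.6. Ctrl-KD OIS was again lowest, and RB-KD OIS overlapped growing, so the small gap between those states on 208950_s_at was not seen there. The log2 differences were -0.49 for Ctrl-KD OIS against growing and 0.47 for RB-KD OIS against Ctrl-KD OIS (SE 0.13 each). The dimmest, 213591_at, read 101.0 and 97.9 in RB-KD OIS cells, 87.3 and 7.2 in Ctrl-KD OIS cells, and 141.6 and 144.7 in growing cells. The array at 7.2 sets its difference of -2.51 (SE 0.91), which is not used further.

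ALDH18A1, the synthase of the proline precursor pyrroline-5-carboxylate, had modest gaps on steady probe sets. Probe set 222416_at read 3285.0 and 3135.6 in RB-KD OIS cells, 3909.7 and 4013.1 in Ctrl-KD OIS cells, and 3448.9 and 3377.0 in growing cells. Ctrl-KD OIS lay above both other states, and RB-KD OIS lay just under growing cells. Its log2 difference was 0.21 for Ctrl-KD OIS against growing and -0.30 for RB-KD OIS against Ctrl-KD OIS (SE 0.09 each), and that for RB-KD OIS against growing, -0.09, turned to 0.02 with median centring. On 217791_s_at the signals were 1357.8 and 1303.3 in RB-KD OIS cells, 1508.0 and 1660.5 in Ctrl-KD OIS cells, and 1267.1 and 1525.2 in growing cells, where growing cells overlapped both OIS states.

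ALDH9A1 oxidises an aldehyde of carnitine synthesis and also takes aminoaldehydes from polyamine breakdown. Its probe set, 201612_at, read 6832.5 and 6424.6 in RB-KD OIS cells, 6867.1 and 7720.1 in Ctrl-KD OIS cells, and 6071.3 and 6704.4 in growing cells. Ctrl-KD OIS was above both others, with its lower array barely over the higher RB-KD OIS array. The log2 differences were 0.19 for Ctrl-KD OIS against growing, -0.14 for RB-KD OIS against Ctrl-KD OIS and 0.05 for RB-KD OIS against growing (SE 0.09 each), which makes it the steadiest member by its widest gap.

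**Figure D2:**
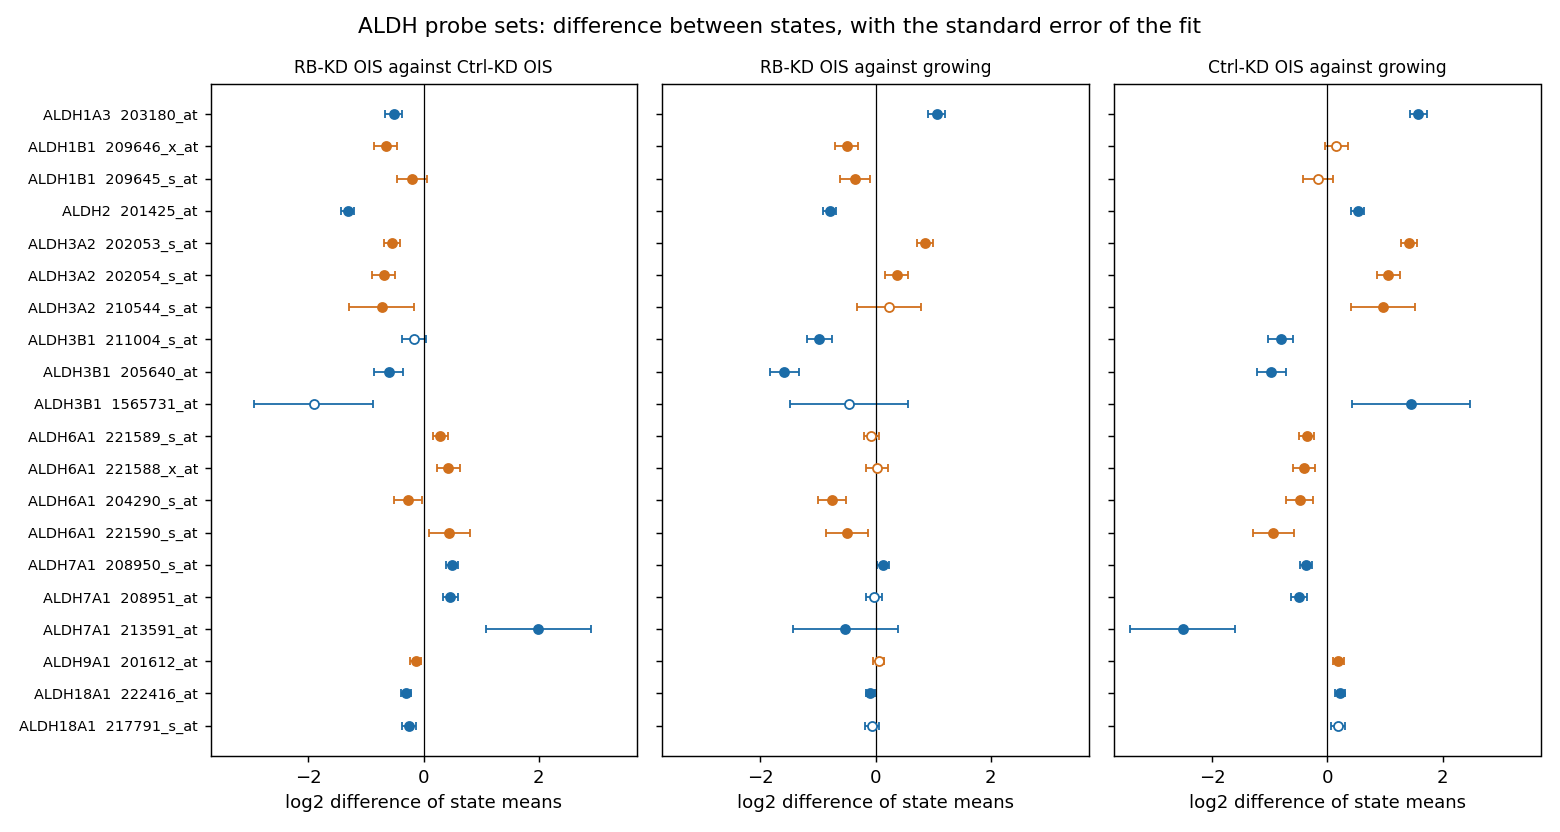
Log2 difference between state means of the 20 tested ALDH probe sets in 3 comparisons, with bars of 1 SE either side. Filled points mark probe sets whose 2 groups of arrays did not overlap, open points those that did, and colour alternates by gene. ALDH2 lies at -1.32 in RB-KD OIS against Ctrl-KD OIS, and ALDH1A3 and ALDH3A2 lie at 1.58 and 1.41 in Ctrl-KD OIS against growing.

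Of the 23 member probe sets, 20 passed the filter on dim signals (above the array median on at least 2 arrays), and 17 were above it on all 6 arrays. The 3 that did not pass were those of ALDH1A1, the second of ALDH1A3 and the fifth of ALDH6A1 (204289_at). In Ctrl-KD OIS against growing cells, 8 of the 20 lay higher without overlap, 9 lower and 3 overlapped. Over all 30139 probe sets tested, 67.8% did not overlap and 34.1% were called at an adjusted p under 0.05 (15.8% higher and 18.3% lower). For RB-KD OIS set against Ctrl-KD OIS, 6 lay higher, 12 lower and 2 overlapped, where 55.3% of all probe sets did not overlap and 16.9% were called (8.96% higher and 7.93% lower). For RB-KD OIS against growing cells, 4 lay higher, 9 lower and 7 overlapped, where 67.1% of all probe sets did not overlap and 30.5% were called (14.0% higher and 16.5% lower).

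Taken as genes by their brightest probe set, 9 of the 10 members entered the fit, ALDH1A1 being dim. Of these 9, 3 were called higher and 2 lower in Ctrl-KD OIS against growing cells, where 41.7% of all genes were called, 20.5% higher and 21.2% lower. Set against Ctrl-KD OIS, 1 was called higher in RB-KD OIS (ALDH7A1) and 5 lower, where 24.2% of all genes were called, 12.6% higher and 11.6% lower. Set against growing cells, 2 were called higher in RB-KD OIS and 2 lower, where 37.6% of all genes were called, 18.5% higher and 19.0% lower. These counts describe genes that the same comparisons selected, and nothing is read from them. The median log2 difference of the 9 was 0.19, -0.30 and -0.07 in the 3 comparisons, and that of all genes was -0.0094, -0.023 and -0.015. Ctrl-KD OIS stood above both other states in 5 of the 9 (ALDH1A3, ALDH2, ALDH3A2, ALDH9A1 and ALDH18A1) and below both in 2 (ALDH6A1 and ALDH7A1). Of all genes, 71.3%, 59.6% and 70.4% did not overlap in the single comparisons, taken in the same order. The share of all genes with such an order of 3 states was not counted, and nothing is read from the order of the members. Among the 6 genes with over 1 tested probe set, all of a gene's probe sets had the same sign in 4 genes for Ctrl-KD OIS against growing, in 5 for RB-KD OIS against Ctrl-KD OIS and in 4 for RB-KD OIS against growing.

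The remaining 9 ALDH genes with a probe set were left outside the members, and 4 of them were bright enough to test. They too were listed with earlier results of these data known, so they are no independent set. ALDH1L2, the mitochondrial 10-formyltetrahydrofolate dehydrogenase of folate metabolism, fell in both OIS states. It read 634.3 and 346.6 in RB-KD OIS cells, 475.9 and 410.0 in Ctrl-KD OIS cells, and 1908.9 and 1830.6 in growing cells. The log2 difference was -2.08 for Ctrl-KD OIS against growing (SE 0.24, limma adjusted p = 0.00012) and -2.00 for RB-KD OIS against growing (SE 0.24, limma adjusted p = 0.00021). Between the OIS states it was 0.09 (SE 0.24, limma adjusted p = 0.839), with overlapping arrays. Both calls held under all 14 alternatives.

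ALDH16A1, a family member thought to lack catalytic activity, read 43.8 and 45.1 in RB-KD OIS cells, under the array median, with 87.3 and 68.2 in Ctrl-KD OIS cells and 132.1 and 110.0 in growing cells. Growing cells exceeded RB-KD OIS cells at least 2.57-fold (limma adjusted p = 0.0184). That call was lost without growing replicate 1 (limma adjusted p = 0.127), growing replicate 2 (0.0686) or RB-KD OIS replicate 1 (0.0523). ALDH1L1, the cytosolic counterpart of ALDH1L2, and ALDH4A1, which oxidises the semialdehyde of proline breakdown, were not called in any comparison. Between the OIS states none of the 4 was called by limma, and none had an unadjusted p under 0.05. ALDH1A2, ALDH3A1, ALDH3B2, ALDH5A1 and ALDH8A1 had probe sets that were dim on at least 5 of the 6 arrays, at 51.3 or less throughout.

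Genes that make, reduce or use the same aldehydes were taken as 6 lists, which with the other ALDH genes held 109 genes, 78 of them tested. Of the 78, 15 rose and 18 fell in Ctrl-KD OIS against growing cells (42.3% called, against 41.7% of all genes), 7 rose and 14 fell in RB-KD OIS against Ctrl-KD OIS (26.9% against 24.2%), and 13 rose and 23 fell in RB-KD OIS against growing cells (46.2% against 37.6%). By direction, 29.5% fell in RB-KD OIS against growing cells, beside 19.0% of all genes, and 17.9% fell in RB-KD OIS against Ctrl-KD OIS, beside 11.6%. In Ctrl-KD OIS against growing cells 23.1% fell, beside 21.2%. The median log2 difference of the 78 was 0.03, -0.07 and -0.10.

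Around ALDH1A3, the retinoid list had 16 tested genes. In Ctrl-KD OIS against growing cells 2 were higher and 4 lower (12.5% and 25%, beside 20.5% and 21.2% of all genes). In RB-KD OIS against growing cells 2 were higher and 3 lower (12.5% and 18.8%, beside 18.5% and 19.0%). CYP26B1, which breaks down retinoic acid, read 1200.0 and 651.3 in RB-KD OIS cells, 1236.4 and 584.0 in Ctrl-KD OIS cells, and 5.2 and 5.4 in growing cells. Growing cells, in which it was dim, were exceeded at least 16.8-fold by Ctrl-KD OIS and at least 17.5-fold by RB-KD OIS. CYP26B1 passed the filter on dim signals through the OIS arrays alone, so no p-value is given for it. Its second probe set, 234721_s_at, did not pass the filter and did not share this order, with 31.9 and 63.4 in RB-KD OIS cells, 13.4 and 3.9 in Ctrl-KD OIS cells, and 49.0 and 31.9 in growing cells. Averaging the pair took the log2 differences of CYP26B1 against growing cells to 2.44 for Ctrl-KD OIS and 3.78 for RB-KD OIS, against 7.33 and 7.38 on the bright probe set. RARRES2, which encodes the retinoid-responsive chemokine chemerin, was dim in both OIS states and at least 3.74-fold below its growing level in Ctrl-KD OIS. RARRES2 passed the filter through the growing arrays alone, and no p-value is given for it either. Between the OIS states 1 of the 16 was called higher (RDH10) and 1 lower (RDH11), 6.25% each, beside 12.6% and 11.6% of all genes. Both are retinol or retinal oxidoreductases, and both calls were lost when all probe sets of a gene were averaged. Bright RDH10 probe sets gave log2 differences of 0.69, 0.65 and 0.44, and 1552379_at, dim on all arrays, went the other way. Bright RDH11 probe sets gave -0.55 and -0.65. Its 217042_at and 232359_at, each above the array median on 3 arrays, gave 1.11 and -0.51.

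Near the amino acid members, PYCR1, the reductase after ALDH18A1 in proline synthesis, read 390.3 and 409.2 in RB-KD OIS cells, 343.3 and 321.1 in Ctrl-KD OIS cells, and 1110.9 and 1109.0 in growing cells (Ctrl-KD OIS against growing log2 difference -1.74, SE 0.13, limma adjusted p = 9.0e-06). Thus PYCR1 fell while ALDH18A1 lay 1.16 times above the growing level. Of 22 tested genes for branched-chain amino acid, lysine and GABA breakdown, 4 rose and 5 fell in Ctrl-KD OIS against growing. Their shares, 18.2% and 22.7%, stood beside 20.5% and 21.2% of all genes. Taking Ctrl-KD OIS as the reference, 2 rose and 6 fell in RB-KD OIS (9.09% and 27.3%, beside 12.6% and 11.6%). With growing cells as the reference, 2 rose and 11 fell in RB-KD OIS (9.09% and 50%, beside 18.5% and 19.0%). BCAT1, the cytosolic first step of branched-chain amino acid breakdown, read 9263.4 and 8356.3 in RB-KD OIS cells, 9434.1 and 9540.2 in Ctrl-KD OIS cells, and 18409.6 and 19668.6 in growing cells. Both OIS states were lower than growing cells on this probe set, 225285_at (limma adjusted p = 1.2e-05 for RB-KD OIS and 1.5e-05 for Ctrl-KD OIS). Another BCAT1 probe set, 226517_at, gave a log2 difference of -1.14 for Ctrl-KD OIS against growing. On 214452_at and 214390_s_at that difference was only -0.12 and -0.13. Most of the gap of 214452_at lay between the OIS states, at -0.58 on the log2 scale for RB-KD OIS against Ctrl-KD OIS. ACAD8, the isobutyryl-CoA dehydrogenase upstream of ALDH6A1 in valine breakdown, was 0.88 higher on that scale in RB-KD OIS than in growing cells (limma adjusted p = 0.00057).

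Near ALDH9A1 and ALDH3A2, polyamine and sphingolipid genes had the largest differences. Of 11 tested carnitine, polyamine and monoamine genes, 5 rose and none fell against growing cells in each OIS state. The 45.5% that rose stood beside 20.5% of all genes in Ctrl-KD OIS and 18.5% in RB-KD OIS. No fall in the list had an unadjusted p under 0.05, where 21.2% and 19.0% of all genes were called lower. SAT1, the polyamine acetyltransferase, read 13345.6 and 13185.1 in RB-KD OIS cells, 12049.1 and 10997.9 in Ctrl-KD OIS cells, and 1844.1 and 1831.5 in growing cells. ODC1, the first enzyme of polyamine synthesis, had the same order of states as ALDH1A3 and ALDH3A2, with 12380.0 and 15396.4 in RB-KD OIS cells, 23017.5 and 24137.3 in Ctrl-KD OIS cells, and 7677.1 and 7574.2 in growing cells. Its log2 difference was 1.63 for Ctrl-KD OIS against growing, -0.77 for RB-KD OIS against Ctrl-KD OIS and 0.86 for RB-KD OIS against growing (SE 0.10 each, limma adjusted p = 3.2e-06, 0.00096 and 0.00021). SPHK1, the sphingosine kinase, rose by 2.51 in Ctrl-KD OIS and by 2.01 in RB-KD OIS on the log2 scale against growing cells (limma adjusted p = 5.8e-07 and 2.9e-06).

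SGPL1, the lyase that releases the long-chain aldehyde ALDH3A2 takes, read 737.7 and 785.0 in RB-KD OIS cells, 1766.1 and 1655.1 in Ctrl-KD OIS cells, and 1537.7 and 1554.8 in growing cells. Its log2 level in RB-KD OIS fell by 1.17 against Ctrl-KD OIS (limma adjusted p = 9.5e-05), a call lost when its probe sets were averaged (limma adjusted p = 0.0681), although the difference stayed at -1.12. A second bright SGPL1 probe set, 212321_at, put most of its gap elsewhere, with -0.71 in Ctrl-KD OIS against growing and -0.34 in RB-KD OIS against Ctrl-KD OIS. Among 12 tested alcohol dehydrogenases and reductases, CBR3, a carbonyl reductase, read 835.2 and 880.8 in RB-KD OIS cells, 319.7 and 358.0 in Ctrl-KD OIS cells, and 1036.2 and 1143.4 in growing cells, so that it was lowest in Ctrl-KD OIS like ALDH7A1. Its log2 difference was -1.69 for Ctrl-KD OIS against growing and 1.34 for RB-KD OIS against Ctrl-KD OIS (SE 0.13 each, limma adjusted p = 9.7e-06 and 0.00017).

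**Figure D3:**
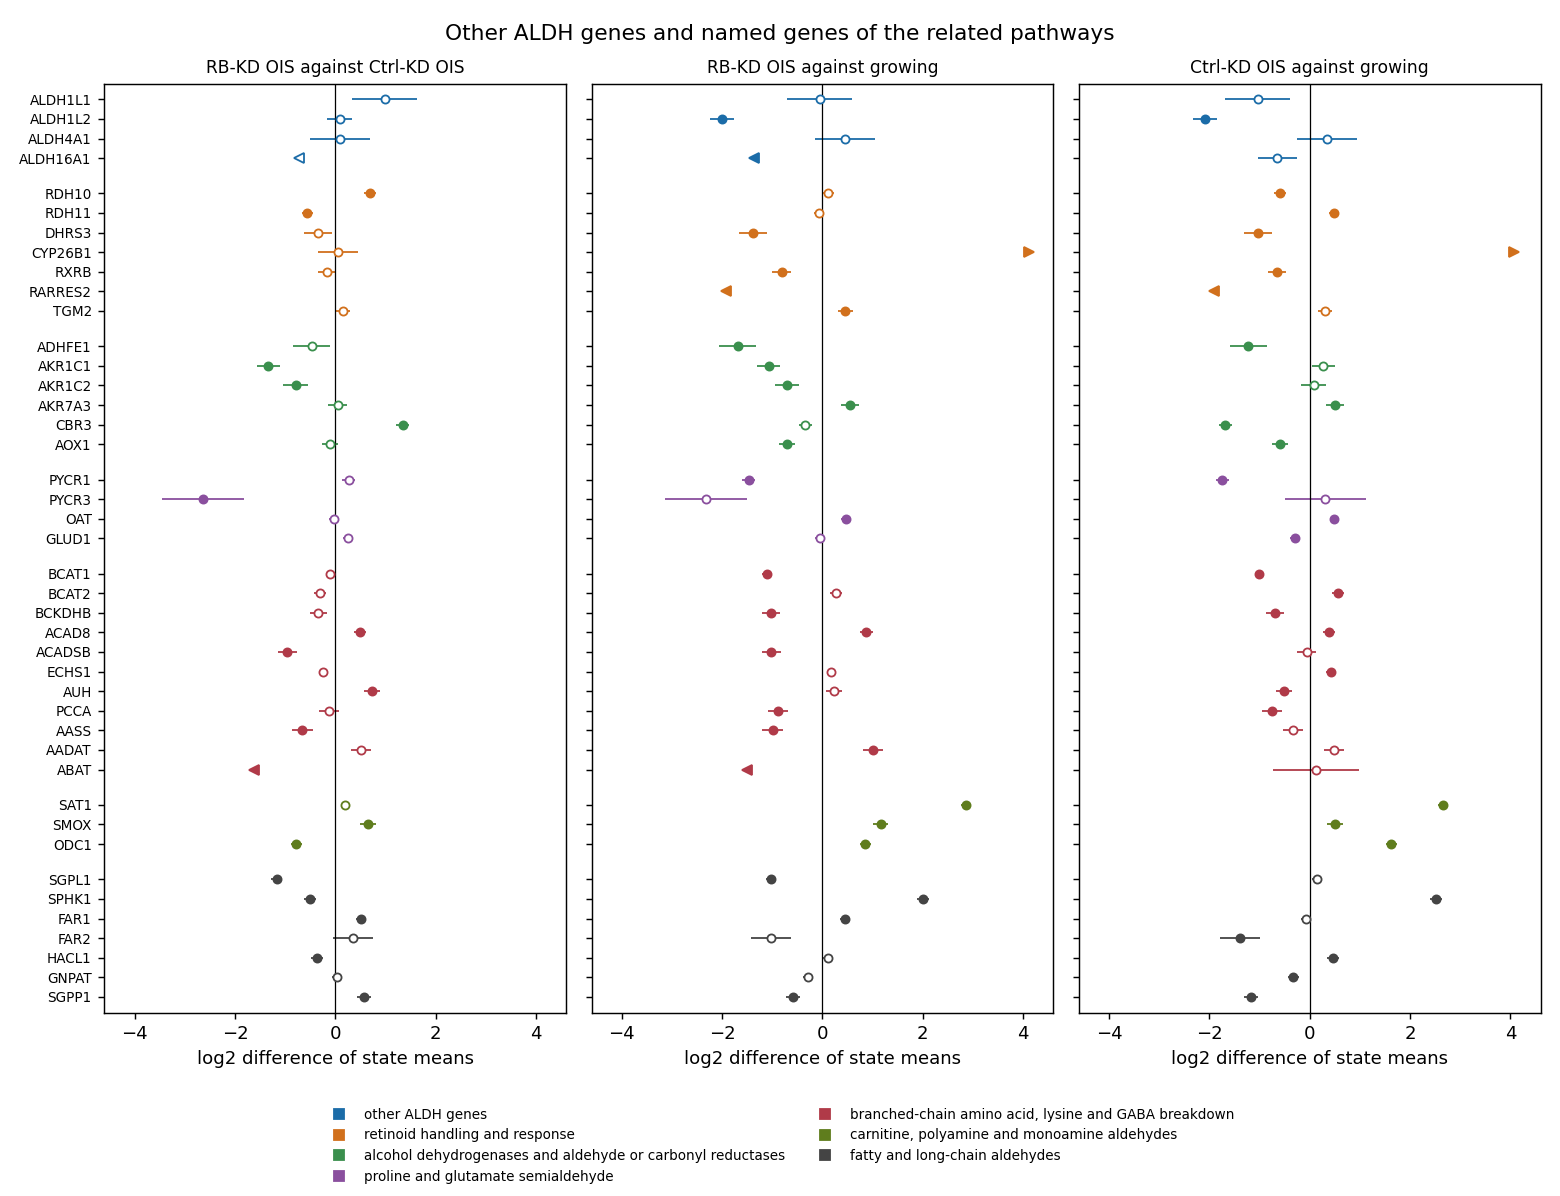
Log2 difference between state means of the 4 tested other ALDH genes and the 38 named genes of the 6 related lists, coloured by list. Filled symbols passed an adjusted p under 0.05 over all genes, bars are 1 SE, and triangles are lower bounds where a gene was dim in 1 state. ALDH1L2 lies near -2 against growing cells in both OIS states, and CBR3 lies at 1.34 in RB-KD OIS against Ctrl-KD OIS and at -1.69 in Ctrl-KD OIS against growing.

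The genes whose 6 log2 signals lay closest to a member, by Euclidean distance after centring each gene on its mean, were sought among 13389 other tested genes. Nearest to ALDH1A3 were ARL6, TNIK, CASP8, DUSP16 and ARSG (distances 0.25 to 0.30), and nearest to ALDH3A2 were TNIK, LEPROTL1, MLLT11, OSTM1 and NEU1 (0.12 to 0.20). TNIK stood in both lists, with log2 differences of 1.44, -0.48 and 0.96 in the 3 comparisons beside 1.41, -0.55 and 0.87 for ALDH3A2. Nearest to ALDH2 were UBE2G2, SLC7A8, DBN1, GJA3 and S1PR3 (0.23 to 0.30), of which UBE2G2 differed by 0.68, -1.31 and -0.63. The likeness runs over 6 arrays of 3 states and describes a shared order of levels alone.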

How the data were processed

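Total RNA from 6 samples of IMR90 cells expressing ER:Ras was hybridized by the authors to Affymetrix U133 Plus 2.0 arrays. The authors computed MAS5 signals in Affymetrix Expression Console, and its version is not given in the sources used here. The deposited intensities are these linear MAS5 signals, scaled to a common level, with a trimmed mean of 496.2 to 496.5 on each array. Groups came from the sample labels. Precision is limited by the number of arrays.

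No offset was added before log2. Of 54613 probe sets, 41091 named 1 gene, 1801 several and 11721 none in the platform table, and none naming a member also named another gene. Symbols were updated by gene identifier for 3 listed genes. A gene was its brightest probe set, and the test took the 13398 genes whose signal exceeded the median of at least 2 arrays. A separate fit by probe set, with its own adjustment, took the 30139 probe sets that passed this filter, whatever genes they named. A mean per state was fitted over all 6 arrays in limma 3.58.1 (R 4.3.3), with a prior variance that followed the signal, two-sided p-values and Benjamini-Hochberg adjustment over all genes tested, at a threshold of 0.05. The fit was tested on simulated data.

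The members and lists were chosen with earlier results of these data known. Named related genes were up to 3 higher and 3 lower called genes with the largest difference in each list and comparison, which gave 67 calls in 38 genes. All are plotted, and the text gives mainly those among the 27 calls that held under every alternative, a choice made after their values were seen. Of 109 listed genes 9 were not analysed here for want of a probe set used. A gene dim on both arrays of a state gets a bound, with that state set to the array medians. Replicate 1 minus replicate 2 correlated between states over genes at r = 0.035, 0.010 and -0.0038. Alternatives were another normalization, centring, offset, filter, choice of probe set or prior, a replicate block, and each array left out.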

Additional observations from a re-analysis of the deposited data

How the results depend on the processing

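Over all genes, the count called in Ctrl-KD OIS against growing cells was 5586, and 3584 when the probe sets of a gene were averaged. It was 3238 in RB-KD OIS against Ctrl-KD OIS, 1649 with that averaging and 1581 with no trend in the prior variance. It was 5033 in RB-KD OIS against growing, and 3039 with averaging. Leaving out an array gave 4051 to 5533, 1929 to 2778 and 3456 to 5349, and the 1929 was without RB-KD OIS replicate 1. Related-list genes called numbered 33, 21 and 36. In RB-KD OIS against Ctrl-KD OIS they were 10 with averaging and 8 with no trend. Leaving out an array gave 20 to 34, 14 to 16 and 24 to 39, with 20 and 21 in Ctrl-KD OIS against growing without growing replicate 1 or 2. With the replicate block, which no pairing of the samples backs, counts were 5696, 3542 and 5191 over all genes and 33, 22 and 39 over related genes.

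Averaging probe sets reversed ALDH1A3 in RB-KD OIS against growing (-0.0037), RDH10 (-0.086, adjusted p = 0.93) and TGM2 (-0.91, 0.0232) in RB-KD OIS against Ctrl-KD OIS, and TGM2 (-0.053, 0.873) in RB-KD OIS against growing cells, since it gives dim or divergent probe sets equal weight. The same averaging turned ALDH7A1 in RB-KD OIS against growing from 0.13 to -0.14. It also turned ALDH1B1 in Ctrl-KD OIS against growing from 0.16 to -0.0052. Of 27 member differences, 20 kept 1 sign under all 14 alternatives. Median centring shifted the median of all genes by 0.093, 0.018 and 0.11 on the log2 scale. The calls over all genes in RB-KD OIS against growing, 2481 higher and 2552 lower, were then 3097 and 1984, and the related-list calls in Ctrl-KD OIS against growing, 15 and 18, were 20 and 15. Signals near the array median, such as those of 210544_s_at, 1565731_at and 213591_at, limit what can be said of those probe sets.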
